A study of Mus musculus with 13 samples.

Results

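Expression of 6 G protein-coupled receptor genes with lipid ligands or no agreed ligand was examined in sorted mouse microglia: Gpr34, Gpr183, Lpar5, Lpar6, Gpr155 and Gpr165. Each was taken as the entry of the deposited gene table with exactly that symbol, which gave 6 of 14518 genes. The genes had been selected on their normalized reads in these same 13 libraries, with earlier results known, so their values and p-values are a description. All 6 passed the filter on low values, as did 12496 genes in all. Repeated social defeat (RSD) was applied to the mice of 7 samples, and the mice of the other 6 were controls (CON). All were 2-month-old C57BL/6 animals. The RSD mice went through 6 cycles of defeat, and RNA was taken 24 days after the last of them. Microglia were enriched on Percoll and sorted by flow cytometry as CD11b+ cells with intermediate CD45, and libraries were made from total RNA after depletion of ribosomal RNA. Sorting by these markers does not by itself separate microglia from every other brain macrophage. Whether samples and animals match singly is not stated in the labels, and the p-values therefore cover the variation from sample to sample, which may be technical.

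Lipid receptors of this kind let a macrophage sense phospholipids and sterols released by neighbouring cells. GPR34 is a receptor for lysophosphatidylserine and is abundant in resting microglia. GPR183, also called EBI2, binds oxysterols and guides the migration of immune cells. LPAR5 and LPAR6 are receptors for lysophosphatidic acid (LPA), a signalling phospholipid made outside cells by autotaxin. GPR155 is a lysosomal membrane protein that binds cholesterol and relays its level to the growth regulator mTORC1. GPR165 is an orphan receptor. In sorted bulk samples, fewer cells of a type and less RNA per cell cannot be told apart.

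Values are normalized reads, that is, a gene's reads divided by a size factor of the library. Depth was 9.76 to 12.3 M recovered reads per library. The fewest reads behind any value of these genes were 99, for Lpar5 in RSD 8, and 103, for Gpr165 in CON 18, with a counting error of about 10.1% and 9.85%. Libraries carry the sample numbers of the labels, which run from 1 to 8 in 6 libraries (CON 1, 4 and 5; RSD 2, 7 and 8) and from 10 to 19 in 7 (RSD 10 to 13; CON 17 to 19). The labels do not call these number ranges batches.

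Libraries CON 18 and RSD 8 stood apart from the rest, and the difference of each receptor gene is given with and without both. The summed level of the 10 microglia markers was 194078 normalized reads in CON 18, where the other 12 libraries had 291432 to 313796. The 9 border macrophage markers in the table summed to 152826 in CON 18, against 1736 to 2828 elsewhere. Apoe, a lipid carrier abundant in activated and border macrophages, was 87.6-fold the median of the other libraries in CON 18. Its 122964 normalized reads there made up most of the border macrophage sum. The mannose receptor gene Mrc1 was 45.2-fold. Values in RSD 8 went with base composition. The Spearman correlation across 11878 genes between a gene's deviation in that library and the GC content of its longest transcript was -0.725. It was -0.563 in RSD 2 and between -0.085 and 0.397 in the other 11. Genes are not independent replicates, so these coefficients only describe the libraries.

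The promoters of Gpr165, Lpar5 and Lpar6 are shown because these genes held the clearest contrasts: Gpr165 differed between libraries more than any other member, and the 2 LPA receptors departed in different libraries and differed most in base composition. Each is the 250 bases before the RefSeq start (GRCm38.p6), and capitals mark the core searched for binding of the glucocorticoid receptor.

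Gpr165 (chrX:96713218-96713467, plus strand): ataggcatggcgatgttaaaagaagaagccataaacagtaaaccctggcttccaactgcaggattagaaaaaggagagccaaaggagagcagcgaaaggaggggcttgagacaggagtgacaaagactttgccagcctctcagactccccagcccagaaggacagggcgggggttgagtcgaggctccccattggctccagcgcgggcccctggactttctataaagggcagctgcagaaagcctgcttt
Lpar5 (chr6:125067670-125067919, plus strand): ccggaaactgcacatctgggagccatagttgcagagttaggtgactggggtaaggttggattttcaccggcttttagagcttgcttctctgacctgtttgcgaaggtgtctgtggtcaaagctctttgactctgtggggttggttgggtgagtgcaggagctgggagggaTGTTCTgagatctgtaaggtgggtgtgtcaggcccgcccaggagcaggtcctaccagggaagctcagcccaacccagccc
Lpar6 (chr14:73237641-73237890, plus strand): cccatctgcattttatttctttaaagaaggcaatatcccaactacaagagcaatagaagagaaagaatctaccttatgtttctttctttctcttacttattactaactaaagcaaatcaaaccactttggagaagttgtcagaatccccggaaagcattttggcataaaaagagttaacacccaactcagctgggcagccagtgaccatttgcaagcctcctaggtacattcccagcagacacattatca

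RefSeq windows matched 5 of the 6 genes, all but Gpr34. GC content was 54.4% in the Gpr165 window, 56% in that of Lpar5 and 39.2% in that of Lpar6. The PU.1 core GAGGAA, searched on both strands, was in none of the 5 genes' windows and in 23.3% of 32851 windows of the same length. The glucocorticoid receptor core AGAACA was in 16.1% of the windows. Among the members it was found in the printed Lpar5 window alone, once, as its reverse complement between 80 and 75 bases before the start. Lpar5 has another RefSeq window, chr6:125071085-125071334, which does not hold it. A match is a description of letters and not a binding site, and the absence of one says only that these letters are not in the window.

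Per kilobase of exon (GENCODE M21, mm10), Gpr34 had the highest level of the 6. Its mean was 7039 ± 1342 normalized reads per kb over all libraries (SD, n = 13), and it ranked 58 of 14518 genes by mean normalized reads. Gpr183 followed with 843 ± 111 normalized reads per kb, Gpr155 with 527 ± 65.8 and Lpar6 with 506 ± 135. Gpr165 stood at 335 ± 137 and Lpar5 at 178 ± 40.5 normalized reads per kb. The order was the same without CON 18 and RSD 8, at 7060 ± 589, 815 ± 48.5, 534 ± 32.3, 459 ± 26.4, 373 ± 100 and 192 ± 19.5 normalized reads per kb (SD, n = 11). In those 11 libraries Gpr34 lay clear of Gpr183, Gpr183 of Gpr155, and Gpr165 of Lpar5, whereas the ranges of Gpr155 and Lpar6, and of Lpar6 and Gpr165, overlapped.

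None of the 6 genes differed between RSD and CON at an adjusted p under 0.05 (limma on log2 values, 13 samples), and 0% of the 12496 genes tested did. At an unadjusted p under 0.05 the counts were 0 of 6 members and 500 genes, or 4%. They were also 0 of 6 members without CON 18, without RSD 8 and without both, where 4.95%, 3.1% and 4.89% of genes had such a p and 0 genes passed after adjustment. edgeR's quasi-likelihood test called 0 genes (601, or 4.81%, at an unadjusted p under 0.05). DESeq2 called 2, or 0.016% (577, or 4.62%, at an unadjusted p under 0.05). Neither called a member, also not at an unadjusted p under 0.05. The groups overlapped for all 6 members when every library was counted, as they did for all but 8 genes, or 0.064%. The plot of normalized reads by group shows every value.

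**Figure D1:**
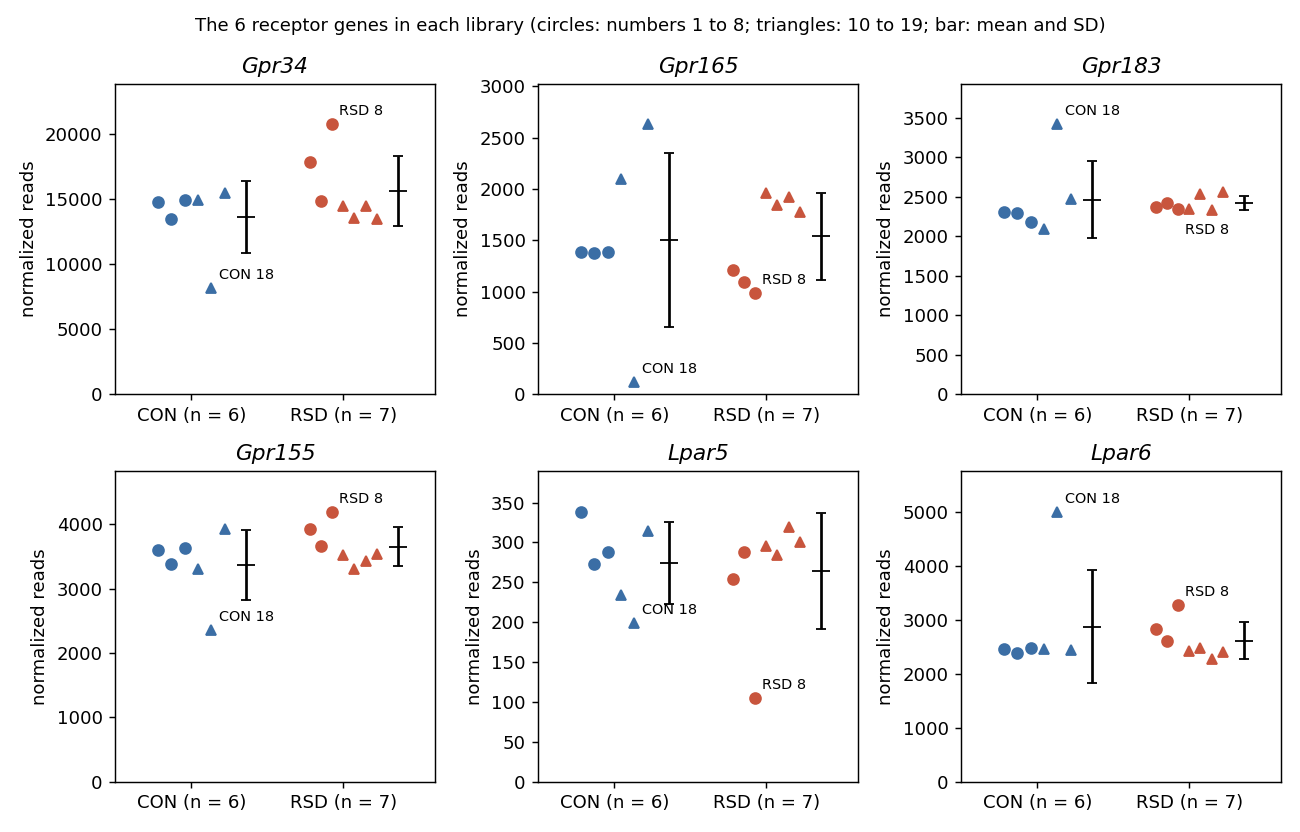
Normalized reads of each receptor gene in every library (y axes from 0), for CON (blue, n = 6) and RSD (red, n = 7); circles are sample numbers 1 to 8, triangles 10 to 19, and the bar is the mean with its SD. CON 18 is the lowest or highest control in every panel, RSD 8 is the lowest RSD library for Gpr165 and Lpar5, and the groups overlap in each panel.

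Gpr34, the lysophosphatidylserine receptor gene (ENSMUSG00000040229.11, chrX:13632089-13640858, plus strand), lies inside Cask on the opposite strand and shares no exon base with it. RSD libraries ran from 13456 to 20761 normalized reads with a median of 14436. CON libraries ran from 8179 to 15455 with a median of 14867. RSD 8 and RSD 2 were the highest of all libraries and CON 18 the lowest, and the remaining libraries of both groups overlapped. The means were 15631 ± 2699 in RSD (SD, n = 7) and 13638 ± 2753 in CON (SD, n = 6), a log2 difference of 0.21 ± 0.14 (SE; limma, adjusted p = 0.821). Without CON 18 and RSD 8 the log2 difference was -0.00 ± 0.06 (SE; limma, adjusted p = 0.999).

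Within number ranges the sign of the Gpr34 difference depended on CON 18. At an unadjusted p under 0.05, 2 of 6 members (Gpr34 and Gpr165) stood in numbers 1 to 8, where 22.2% of genes did, and the same 2 in numbers 10 to 19 without CON 18, where 9.53% did. After adjustment 0 and 11 genes passed, or 0% and 0.088%, and no member. In numbers 1 to 8 the log2 difference, RSD minus CON, was 0.29 ± 0.13 (limma, unadjusted p = 0.0464, adjusted p = 0.223). In numbers 10 to 19 it was 0.18 ± 0.21 with all libraries, the same sign. Without CON 18 it was -0.12 ± 0.04 (limma, unadjusted p = 0.00678, adjusted p = 0.315), and all 4 RSD libraries were below both controls. The test of this contrast itself, the interaction of stress with number range, gave -0.12 ± 0.26 with all libraries (limma, adjusted p = 0.805) and -0.30 ± 0.09 without CON 18 and RSD 8 (limma, unadjusted p = 0.00212, adjusted p = 0.0526). That second setting called 463 genes, or 3.71%, and no member. The 2 RSD libraries with the highest Gpr34, numbers 8 and 2, were the 2 whose values fell most steeply with GC content, and the Gpr34 transcript is 37.1% GC, at the 1.32 percentile of genes. The part of base composition in this contrast was not tested.

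Cask, the gene around Gpr34, encodes a membrane scaffold kinase, and its reads moved with those of Gpr34. The ratio of Gpr34 to Cask was between 8.67 and 10.8 in all 13 libraries, including CON 18. Cask had a log2 difference of 0.19 ± 0.14 over all samples, close to that of Gpr34. Since strand use in the counting is not known, reads of the 2 genes in shared introns cannot be assigned with certainty.

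Gpr183, the oxysterol receptor gene (chr14:121952551-121965195, minus strand), lies inside Ubac2 on the opposite strand with no exon base in common. RSD libraries ran from 2336 to 2554 normalized reads, with a median of 2374. CON libraries ran from 2086 to 3417, with a median of 2299. The RSD values were tightly grouped, 5 of 6 controls reached at most 2469 and CON 18 alone was above every other library. The means were 2415 ± 90.1 in RSD (SD, n = 7) and 2458 ± 487 in CON (SD, n = 6), and the log2 difference was -0.01 ± 0.09 (limma, adjusted p = 0.988).

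The sign of the Gpr183 difference, which lay near 0, turned to 0.09 ± 0.06 without CON 18. It also turned without RSD 8, RSD 10 or RSD 12 alone, to values under 0.01. Leaving out CON 18 and RSD 8 gave 2426 ± 93.5 in RSD (SD, n = 6) and 2266 ± 144 in CON (SD, n = 5), a log2 difference of 0.10 ± 0.05 (limma, unadjusted p = 0.0674, adjusted p = 0.902). The difference was 0.08 ± 0.09 in numbers 1 to 8 and 0.10 ± 0.06 in numbers 10 to 19 without CON 18, and neither passed the threshold. In numbers 1 to 8 all 3 RSD libraries were above all 3 controls. Ubac2, which encodes a protein of the endoplasmic reticulum, had a log2 difference of -0.13 ± 0.10, and the ratio of Gpr183 to Ubac2 ranged from 4.53 to 6.35.

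Genes that make, break down or sense oxysterols were measured beside the receptor. Of 10 listed genes 5 were tested and 0 passed in either direction. All 5 had negative log2 differences over all samples, with a median of -0.22 against 0.01 for all genes, and 4 of 5 did without CON 18 and RSD 8, with a median of -0.02. Nr1h2 and Nr1h3, which encode the oxysterol-activated nuclear receptors LXR beta and LXR alpha, had log2 differences of -0.22 ± 0.15 and -0.37 ± 0.29. Soat1, which esterifies cholesterol, had -0.15 ± 0.11. Ch25h, which makes the precursor of the GPR183 ligand, was too low to be tested: it had 126 normalized reads in CON 18 and at most 5.39 elsewhere. Cyp27a1, another sterol hydroxylase gene, had 1365 in CON 18 and 351 to 497 in the other libraries.

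Lpar5, an LPA receptor gene (chr6:125067920-125082472, plus strand), overlaps no other annotated gene. RSD libraries ran from 105 to 320.0 normalized reads with a median of 288. CON libraries ran from 199 to 339 with a median of 280.4. RSD 8 was far below all others, CON 18 was the lowest control, and the remaining RSD values fell inside the control range. The means were 264 ± 72.8 in RSD (SD, n = 7) and 275 ± 51.2 in CON (SD, n = 6), a log2 difference of -0.11 ± 0.22 (limma, adjusted p = 0.907). Without CON 18 and RSD 8 it was 0.01 ± 0.09 (limma, adjusted p = 0.995).

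The Lpar5 transcript was 58.8% GC, higher than 93.7% of genes, and its level in RSD 8 was 36.6% of the median of the other libraries. In numbers 1 to 8 the log2 difference was -0.59 ± 0.32, and without RSD 8 it was -0.14 ± 0.12, a setting added after the data were seen. In numbers 10 to 19 it was 0.29 ± 0.15, and 0.14 ± 0.12 without CON 18. None of these 4 values passed the threshold.

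Lpar6, the other LPA receptor gene of the set (chr14:73237895-73243294, plus strand), lies inside Rb1 on the opposite strand. Of its 5400 exon bases 408, or 7.56%, are also exon of Rb1 transcripts. RSD libraries ran from 2278 to 3272 normalized reads with a median of 2483. CON libraries ran from 2379 to 5009 with a median of 2453. CON 18 was far above every other library and RSD 8 came next, while the other 5 controls stayed between 2379 and 2484. The means were 2615 ± 339 in RSD (SD, n = 7) and 2871 ± 1048 in CON (SD, n = 6), a log2 difference of -0.08 ± 0.15 (limma, adjusted p = 0.893).

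Without CON 18 and RSD 8 the Lpar6 means were 2506 ± 193 in RSD (SD, n = 6) and 2443 ± 38.5 in CON (SD, n = 5), a log2 difference of 0.03 ± 0.05 (limma, adjusted p = 0.965). In numbers 1 to 8 all 3 RSD libraries were above all 3 controls, with a log2 difference of 0.25 ± 0.11 (limma, unadjusted p = 0.0502, adjusted p = 0.225). In numbers 10 to 19 it was -0.38 ± 0.25, and -0.03 ± 0.05 without CON 18. The interaction of stress with number range gave -0.62 ± 0.29 over all libraries (limma, adjusted p = 0.230) and -0.19 ± 0.09 without CON 18 and RSD 8 (limma, adjusted p = 0.222). The Lpar6 transcript was 36.4% GC, the lowest of the 6, and its level in RSD 8 was 1.33-fold the median of the others. Rb1, the retinoblastoma tumour suppressor gene, was 1.74-fold in RSD 8 and 1.51-fold in CON 18. The ratio of Lpar6 to Rb1 was 1.00 to 1.21 in 11 libraries, 0.848 in RSD 8 and 1.5 in CON 18.

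Of 14 further lysophospholipid and sphingolipid receptor genes 6 were tested and 0 passed, with 2 positive and 4 negative log2 differences and a median of -0.06. Leaving out CON 18 and RSD 8 turned this to 4 positive and 2 negative, with a median of 0.01. Lpar2, another LPA receptor gene in these cells, had a log2 difference of 0.25 ± 0.19. The sphingosine-1-phosphate receptor genes S1pr1 and S1pr2 had -0.29 ± 0.23 and -0.43 ± 0.35, with 1285 and 359 normalized reads in CON 18 against at most 603 and 96.2 in the others. Of 24 genes of LPA and lysophosphatidylserine metabolism 21 were tested and 0 passed, 11 positive and 10 negative, with a median of 0.00, and 8 positive and 13 negative without CON 18 and RSD 8. Plpp1 and Plpp2, entered in the table under older symbols, encode phosphatases that remove LPA, and had log2 differences of 0.25 ± 0.14 and -0.37 ± 0.20. Pla2g4a, the cytosolic phospholipase that releases arachidonic acid, had 0.16 ± 0.08. Enpp2, which encodes autotaxin, ranged from 9.25 to 1647 normalized reads over the libraries and did not separate the groups.

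Gpr155, the cholesterol sensor gene (chr2:73341506-73386572, minus strand), shares 120 and 166 exon bases with the antisense genes Gm13703 and Gm13709, which were not analysed here. RSD libraries ran from 3305 to 4199 normalized reads with a median of 3537. CON libraries ran from 2352 to 3929 with a median of 3491. RSD 8 was the highest and CON 18 the lowest of all 13, and the other libraries of the 2 groups interleaved. The means were 3656 ± 309 in RSD (SD, n = 7) and 3367 ± 543 in CON (SD, n = 6), a log2 difference of 0.13 ± 0.10 (limma, adjusted p = 0.821). It was -0.00 ± 0.05 without CON 18 and RSD 8 (limma, adjusted p = 0.999).

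Gpr155 was above all 3 controls in all 3 RSD libraries of numbers 1 to 8 (log2 difference 0.15 ± 0.10), and in numbers 10 to 19 the log2 difference was 0.14 ± 0.15 with all libraries and -0.06 ± 0.06 without CON 18. All 17 genes listed for lysosomal cholesterol sensing and mTORC1 were tested and 0 passed, 6 positive and 11 negative, with a median log2 difference of -0.05. Mtor, the kinase of that complex, had -0.15 ± 0.08. Nprl3, part of a complex that restrains mTORC1, had -0.22 ± 0.13. Rragc, a GTPase that recruits mTORC1 to lysosomes, had 0.12 ± 0.06, and 0.14 ± 0.06 without CON 18 and RSD 8 (limma, unadjusted p = 0.0212). It was the only 1 of the 17 genes with an unadjusted p under 0.05 in that setting. Of all genes 4.89% had such a p there, and 0 passed after adjustment.

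Gpr165, the orphan receptor gene (ENSMUSG00000031210.10, chrX:96713441-96719388, plus strand), overlaps no other annotated gene and varied most of the 6. Its values in CON 1, 4 and 5 were 1385, 1377 and 1385 normalized reads, and in RSD 2, 7 and 8 they were 1206, 1092 and 989. In RSD 10, 11, 12 and 13 they were 1959.8, 1840.5, 1918 and 1774, and in CON 17, 18 and 19 they were 2093, 116 and 2631. CON 18 was far below all other libraries. Among the other 12, each library numbered 10 to 19 was above each numbered 1 to 8, and within each range each RSD library was below each control, as the bar plot by sample number shows.

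**Figure D2:**
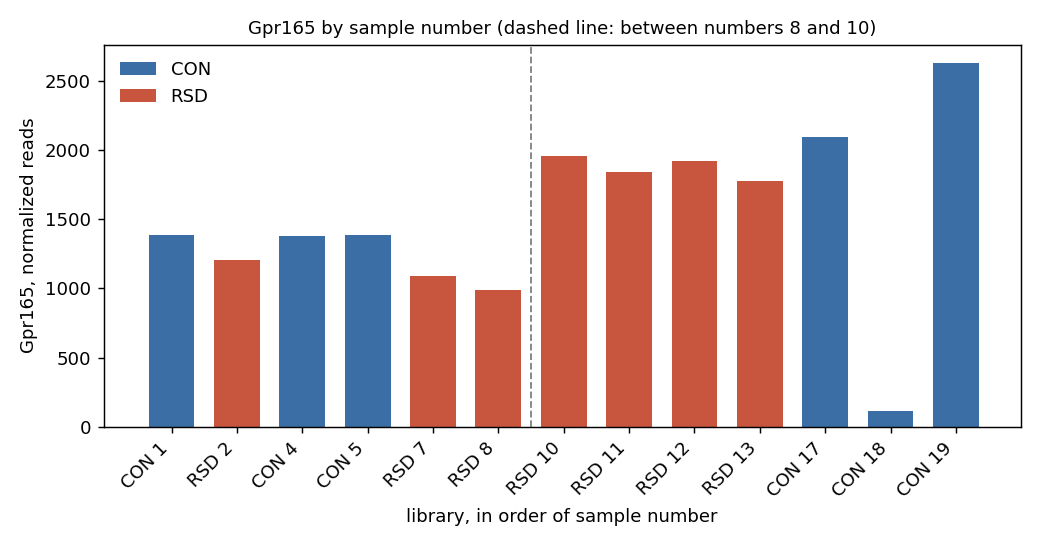
Gpr165 normalized reads (bars from 0) in the 13 libraries in order of sample number, CON in blue and RSD in red; the dashed line divides numbers 1 to 8 from 10 to 19. RSD bars are below control bars on each side of the line except for CON 18, at 116, and bars to the right of the line are otherwise higher than those to the left.

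Pooled over numbers, the Gpr165 means were 1540 ± 424 in RSD (SD, n = 7) and 1498 ± 847 in CON (SD, n = 6), with a log2 difference of 0.44 ± 0.61 (limma, adjusted p = 0.859). Without CON 18 the difference was -0.20 ± 0.23 (limma, adjusted p = 0.783), and without CON 18 and RSD 8 it was -0.10 ± 0.24 (limma, adjusted p = 0.981). The means in numbers 1 to 8 were 1096 ± 109 in RSD and 1383 ± 4.42 in CON (SD, n = 3 each). This control SD was 0.32% of the mean, below the counting error of 1.92% at the most Gpr165 reads of any library. It is therefore too small to be read as the spread between controls. The log2 difference in numbers 1 to 8 was -0.34 ± 0.11 (limma, unadjusted p = 0.0093, adjusted p = 0.204).

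In numbers 10 to 19 the sign of Gpr165 depended on CON 18. With it the log2 difference was 1.12 ± 1.06. Without it the means were 1873 ± 82.6 in RSD (SD, n = 4) and 2362 ± 380 in CON (SD, n = 2), and the log2 difference was -0.33 ± 0.07 (limma, unadjusted p = 0.000439, adjusted p = 0.130). With the number range as a term and CON 18 left out, a setting added after the data were seen, it was -0.33 ± 0.07 (limma, unadjusted p = 0.000216, adjusted p = 0.528), the 2nd smallest p of 12496 genes. Leaving out RSD 8 as well gave -0.30 ± 0.06 (limma, unadjusted p = 3.49e-05, adjusted p = 0.109). In these 2 settings 1 of 6 members, Gpr165, had an unadjusted p under 0.05, where 8.83% and 6.1% of genes did. In numbers 1 to 8 without RSD 8 it was 2 of 6, again with Gpr34, where 18% did, and 0.64% of genes but no member passed after adjustment. Gpr165 thus passed no threshold over all genes in any setting, and its lowest adjusted p over 30 alternatives was 0.0995.

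Lower values in every RSD library than in every control within both number ranges, without CON 18, were found for 84 genes, or 0.672%, and Gpr165 was the only one of the 6 members. The opposite pattern held for 0 members and 0.488% of genes. All 3 RSD libraries were above all 3 controls in numbers 1 to 8 for 3 of 6 members (Gpr183, Gpr155 and Lpar6), where 16.2% of genes were, and below them for 1 (Gpr165), where 14.3% were. In numbers 10 to 19 without CON 18, 2 members (Gpr34 and Gpr165) were below, where 9.76% of genes were, and 0 were above, where 8.93% were.

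For Gpr165 the size of the difference between number ranges depended on whether CON 18 and RSD 8, which were left out together, were in the fit. High minus low numbers gave a log2 difference of 0.73 ± 0.06 without CON 18 and RSD 8 (limma, adjusted p = 4.40e-08), the smallest p of 12496 genes, of which 247, or 1.98%, were called. With all libraries it was 0.10 ± 0.63 (limma, adjusted p = 0.970), with 86 genes, or 0.688%, called. Gpr165 was the only member called without the 2 libraries, and the other 5 had log2 differences between -0.09 and 0.02. Without CON 18, 143 genes, or 1.14%, were higher in every library numbered 10 to 19 than in every library numbered 1 to 8, Gpr165 alone of the members, and 1.1% with 0 members showed the reverse. Only 1 gene of 12496, or 0.008%, met this pattern together with lower RSD values in both ranges, and that was Gpr165. The combination was set after the values of Gpr165 were seen, so Gpr165 had to meet it and the count supports nothing. The summed neutrophil markers, 7 of 8 in the table, split along the same line, at 182 to 1188 normalized reads in numbers 1 to 8 and 11.6 to 142 in numbers 10 to 19. Their part in the Gpr165 difference was not tested.

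The interaction of stress with number range for Gpr165 was 1.46 ± 1.28 with all libraries (limma, adjusted p = 0.504) and -0.06 ± 0.11 without CON 18 and RSD 8 (limma, adjusted p = 0.813).

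In CON 18 the receptors moved in different directions. Relative to the median of the other 12 libraries, Gpr165 was at 7.35%, Gpr34 at 55.1%, Gpr155 at 65.9% and Lpar5 at 69.2%, whereas Gpr183 was 1.45-fold and Lpar6 2.04-fold. A pair of genes that mark microglia were also low there: P2ry12, a purinergic receptor gene, was at 42.7% and Sall1, a transcription factor gene of microglial identity, at 28.7%. Gpr165 was lower, relative to the other libraries, than either of these 2 markers, and Gpr34 was less reduced than these 2. The 10 microglia markers together summed to 194078 normalized reads in CON 18, against 291432 to 313796 elsewhere. That is a smaller relative fall than that of Gpr34 or of either of the 2 markers. CON 18 lay outside the range of the other libraries for 5 of 6 members, all but Lpar5, and for 44.1% of all genes tested. The part of border macrophage transcripts in these values was not tested.

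RSD 8 lay outside the range of the others for 3 of 6 members (Gpr34 and Gpr155 above, Lpar5 below), and for 52.5% of genes. There Gpr34 was 1.42-fold the median of the others, Lpar6 1.33-fold, Gpr155 1.19-fold, Gpr183 at 99.5%, Gpr165 at 62.6% and Lpar5 at 36.6%. The Gpr165 value was not particular to RSD 8. By the same measure Gpr165 was at 69.1% in RSD 7, 76.4% in RSD 2 and 87.2% to 87.7% in CON 1, 4 and 5. The transcripts of Gpr155, Gpr183 and Gpr165 were 44.1%, 44.9% and 45.1% GC. The part of base composition in the RSD 8 values was not tested.

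**Figure D3:**
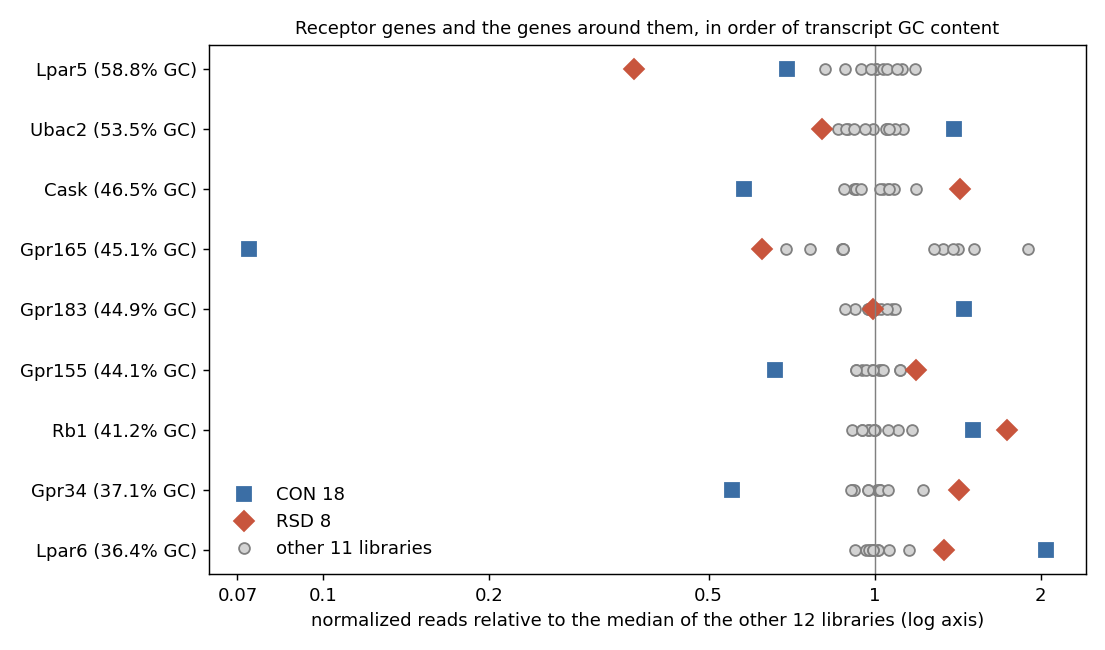
Normalized reads in each library relative to the median of the other 12 (log axis) for the 6 receptor genes and for Cask, Ubac2 and Rb1, ordered by GC content of the longest transcript; squares are CON 18, diamonds RSD 8 and grey circles the other 11 libraries. CON 18 is lowest for Gpr165, at 7.35% of the median, and highest for Lpar6, at 2.04-fold, and RSD 8 is lowest for Lpar5, at 36.6%.

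The plot of differences by the samples in the fit shows how far each receptor depended on these libraries. Gpr34 and Gpr155 had positive differences over all samples and differences near 0 without CON 18 and RSD 8. Gpr183 and Lpar6 turned from negative to positive when CON 18 was left out, Gpr165 from positive to negative, and Lpar5 from negative to positive when RSD 8 was left out.

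**Figure D4:**
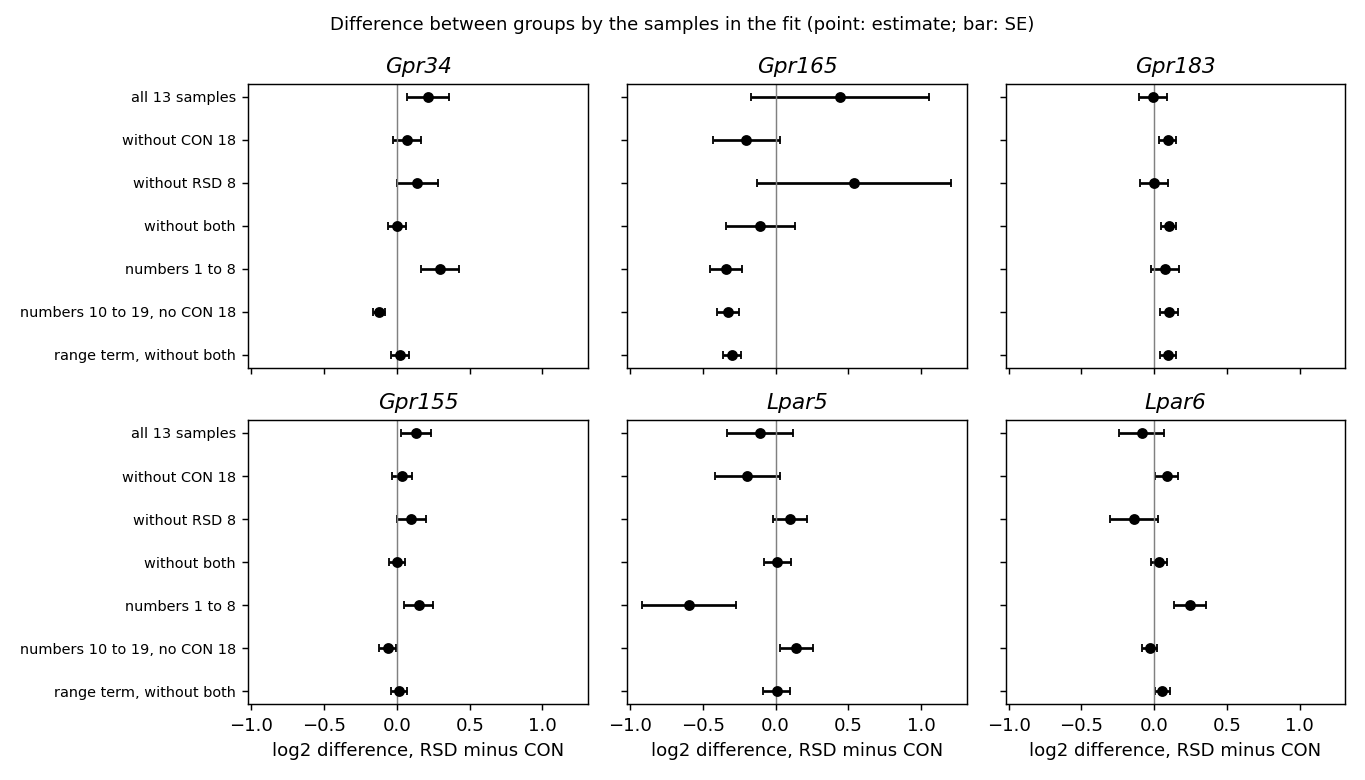
Log2 difference of RSD minus CON (points) with its standard error (bars) for each receptor gene under 7 choices of samples; the grey line is at 0. Gpr165 has differences of -0.34 in numbers 1 to 8 and -0.33 in numbers 10 to 19 without CON 18, and a wide error bar over all samples.

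The genes whose pattern was most like each receptor are given by the Pearson correlation of log2 values, as a description. Over all 13 libraries, which CON 18 and RSD 8 dominate, the genes like Gpr165 included Dip2b (r = 0.989) and Rgs7bp (r = 0.984). Over the 11 libraries without them it was most like Rgs7bp (r = 0.927), Plagl2 (r = 0.913) and Casc3 (r = 0.893). Rgs7bp, which encodes a membrane anchor for regulators of G protein signalling, was the only gene on both lists of any receptor. It had 255 to 339 normalized reads in numbers 1 to 8 and 350.2 to 464 in numbers 10 to 19 without the 2 libraries, and 47.3 in CON 18.

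The genes like Gpr34 over 13 libraries included Kitl (r = 0.988), which encodes stem cell factor, and Lims1 (r = 0.978). Over 11 it was most like Far1 (r = 0.979), Tmem30a (r = 0.962) and Ccnh (r = 0.942). Gpr155 was most like Zfp2 (r = 0.974), Zyg11b (r = 0.961) and Ppp2r1b (r = 0.960) over 13 and Ccnc (r = 0.925), Tmem241 (r = 0.915) and Nf1 (r = 0.899) over 11. Gpr34 and Gpr155 correlated with each other at r = 0.955 over 13 libraries and 0.742 over 11.

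Gpr183 was most like 2610020H08Rik (r = 0.948), the kinase gene Map3k1 (r = 0.942) and Inpp4a (r = 0.935) over 13 libraries. Over 11 these were Alyref (r = 0.926), the cytokine gene Il1a (r = 0.905) and Pabpc1l (r = 0.886). Lpar5 was most like Ltc4s (r = 0.974), which encodes leukotriene C4 synthase, Bik (r = 0.973) and Casp9 (r = 0.973) over 13, and Coq4 (r = 0.903), Trim35 (r = 0.899) and Urb1 (r = 0.887) over 11. Lpar6 was most like Wwp1 (r = 0.991), Dclre1c (r = 0.986) and the lipopeptide receptor gene Tlr1 (r = 0.980) over 13, and the genes like it over 11 included Zfp329 (r = 0.975) and Syncrip (r = 0.952). Gpr165 and Lpar6 correlated at r = -0.946 over 13 libraries and -0.549 over 11, and Gpr34 and Lpar6 at -0.504 over 13 and 0.761 over 11.

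Other receptors and the shared signalling machinery were taken from gene lists drawn up by function. Of 21 fatty acid, eicosanoid and cannabinoid receptor genes 7 were tested and 0 passed, 2 positive and 5 negative, with a median log2 difference of -0.20. Gpr84, a receptor for medium-chain fatty acids, had -0.20 ± 0.12, the cannabinoid receptor gene Cnr2 had -0.21 ± 0.12 and the leukotriene receptor gene Cysltr1 had 0.11 ± 0.11. Of 23 other orphan and proton-sensing receptor genes 20 were tested and 0 passed, 4 positive and 16 negative, with a median of -0.09. Cd97, an older symbol of the adhesion receptor gene Adgre5, had -0.57 ± 0.28, Gpr137 had -0.34 ± 0.17 and Gpr160 had -0.18 ± 0.14. Without CON 18 and RSD 8 the medians of these 2 lists were -0.11 and -0.02, against 0.00 for all genes.

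Receptors outside the 6 members also departed in CON 18. The proton-sensing receptor gene Gpr65 was at 4470.4 normalized reads there, while the rest had 84.1 to 154. The prostaglandin E receptor gene Ptger4 was at 1199, while the rest had 19.2 to 54.6. These 2 genes were chosen after their values were seen.

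Of 32 listed genes for G proteins and regulators of receptor signalling 30 were tested and 0 passed, 13 positive and 17 negative, with a median log2 difference of -0.03. Gnai3, an inhibitory G protein subunit of the class that GPR34 and GPR183 signal through, had 0.18 ± 0.09 (limma, unadjusted p = 0.0491). It was the only 1 of the 30 with an unadjusted p under 0.05, where 4% of all genes had one. Without CON 18 and RSD 8, 0 of the 30 had one, where 4.89% of all genes did. The list then had 9 positive and 21 negative differences, with a median of -0.04. Over all samples Gna12, another G protein alpha subunit, had -0.20 ± 0.11, and Rgs14, a regulator of G protein signalling, had -0.26 ± 0.16. The lowest adjusted p among the genes named from the lists was 0.821 (limma). That was also the lowest of all 12496 genes, so it sets no listed gene apart.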

How the data were processed

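The deposited table holds a signal per gene and sample, made by the authors by dividing read counts by DESeq2 size factors. Alignment with STAR to mm10 is per the submitters' processing notes. Which counter and annotation were used, and whether strand was, is not given in the sources used here. Whole reads were recovered from the steps between values (100% whole within 0.01 reads), and each pair of libraries differed by more than counting noise (chi-square per degree of freedom at least 4.34). The test was limma 3.58.1 (R 4.3.3) on log2(value + 1) with trend and robust variance, two-sided, Benjamini-Hochberg adjustment over 12496 genes kept by filterByExpr (minimum count 10, total 15) and a threshold of 0.05. The count test set for raw counts was run as an alternative because the table is normalized: edgeR 4.0.16 and DESeq2 1.42.0 on recovered reads. The 1 added to each value before the log makes the limma differences understate the change of low genes. limma was tested on simulated data. Lists, members and number ranges were chosen with earlier results of these data known. In each list up to 3 genes averaging 10 or more normalized reads were named by smallest p, and per member the 3 genes of highest correlation, some of which are not reported here. Gene positions are from GENCODE M21.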

Additional observations from a re-analysis of the deposited data

Results flagged for a closer look

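In 4 of the 12 combinations of receptor gene and group, a library lay far from the rest of its group by Dixon's gap test. The test flags about 1 in 20 groups by chance, but the 12 combinations share libraries and are not independent. The share it flags over all genes is not given here. Each flagged library was CON 18 or RSD 8, which lay outside the range of the other 12 libraries for 44.1% and 52.5% of all genes tested. CON 18 was low for Gpr34, with 8179 normalized reads, and high for Gpr183, with 3417, and for Lpar6, with 5009. RSD 8 was low for Lpar5, with 105 normalized reads.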

How the results depend on the processing

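No paired analysis was possible because no sample number occurs in both groups. None of the 6 members was called under any of 30 alternatives. Genes called numbered 0 in 27 of them, 2 by DESeq2, 11 in numbers 10 to 19 without CON 18, and 80 in numbers 1 to 8 without RSD 8 (added after the data were seen). The interaction with number range called 463 genes without CON 18 and RSD 8, against 0.

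Signs turned as follows, all values being log2 RSD minus CON. With limma-voom weights Gpr34 gave -0.0012, Gpr183 0.10, Gpr155 -0.0016, Lpar5 0.0059 and Lpar6 0.0020. Without CON 18 and RSD 8 the values were -0.00073 for Gpr34, -0.10 for Gpr165, 0.10 for Gpr183, -0.0013 for Gpr155, 0.0125 for Lpar5 and 0.0329 for Lpar6. In numbers 10 to 19 without CON 18 they were -0.12 for Gpr34, -0.33 for Gpr165, 0.10 for Gpr183, -0.0629 for Gpr155 and 0.14 for Lpar5, which had 0.29 with CON 18. In numbers 1 to 8, Gpr165 gave -0.34, Gpr183 0.0757 and Lpar6 0.25, and without RSD 8 these were -0.27, 0.0849 and 0.16. With number range as a term and without CON 18, Gpr165 gave -0.33, Gpr183 0.0890 and Lpar6 0.12, and without both libraries -0.30, 0.0949 and 0.0575, with 0.00902 for Lpar5; both settings were added after the data were seen.

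Leaving out each library in turn gave 0.07 to 0.25 for Gpr34, -0.20 to 0.70 for Gpr165, -0.0492 to 0.0931 for Gpr183, 0.03 to 0.18 for Gpr155, -0.19 to 0.10 for Lpar5 and -0.14 to 0.0884 for Lpar6, with 0 genes and 0 members called each time. The sign of Gpr183 also turned without RSD 8 (0.000486), RSD 10 (0.000715) and RSD 12 (0.00185). The fit without CON 18 set the low end for Gpr34, Gpr165, Gpr155 and Lpar5 and the high end for Gpr183 and Lpar6. The fit without RSD 8 set the low end for Lpar6 and the high end for Lpar5. The fit without CON 19 set the high end for Gpr34, Gpr165 and Gpr155, and that without CON 17 the low end for Gpr183. The causes of the changes were not tested. Number ranges are small, with 2 to 4 libraries a group, and Lpar5, the lowest member, rested on as few as 99 reads.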
